A study of Homo sapiens with 6 samples.

Results

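Cartilage proteoglycans and matrix glycoproteins were described here through 10 genes, *ACAN*, *VCAN*, *HAPLN1*, *HAPLN3*, *COMP*, *MATN2*, *MATN3*, *PRG4*, *BGN*, and *DCN*, picked by gene symbol out of the 60623 genes of a raw count table. The cells were TC28a2, an immortalized line of human chondrocytes, so that every sample is from 1 line. Cells received either 2 μM mocetinostat, an inhibitor of class I histone deacetylases, or DMSO, its solvent, over 24 hours, and each condition has 3 samples (dose, time, and the origin of the samples in 3 independent experiments are as given in the study's methods). RNA-Seq reads were counted per gene, and the question was which of these matrix genes differed between mocetinostat-treated and DMSO-treated cells. All 10 genes had reads. After edgeR's filter on low counts, 8 of them were among the 13966 genes tested, while *PRG4* and *DCN* had too few reads and are given by their counts.

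The matrix of cartilage holds water because aggrecan, a proteoglycan with many sulfated sugar chains, binds in large numbers to hyaluronan, and link proteins lock it in place. Versican, a relative of aggrecan, fills the same role in softer tissues and in early cartilage. COMP and the matrilins are multi-subunit glycoproteins that bridge collagen fibrils to other matrix molecules, lubricin coats the joint surface, and biglycan and decorin are small leucine-rich proteoglycans that bind collagen fibrils and growth factors.

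Of the 8 genes tested, 4 were called upregulated by mocetinostat with edgeR's quasi-likelihood test (Benjamini-Hochberg adjusted p under 0.05 and a log2 fold change over 1). These were *COMP*, *ACAN*, *MATN3*, and *HAPLN3*. Of all genes tested, 20.2% were called upregulated. *COMP* was under the filter's level in every control, and *MATN3* in DMSO replicate 3. Both passed the filter only with the treated samples, so their direction was not independent of it. With no filter they were at 3.40 and 1.33 on the log2 scale and were called. No gene of the 8 was called downregulated, against 8.18% of all genes; 1 gene, *BGN*, was lower at an unadjusted p under 0.05, and DESeq2 also called 0 of them downregulated. Without the fold minimum, 6 of the 8 genes were higher at an adjusted p under 0.05, against 32.9% of all genes, and 1 was lower, against 31.4%. The normalized values of both conditions did not overlap in 7 of the 8 genes, against 66.5% of all genes. The median log2 fold change of the 8 genes was 1.17, against -0.00 over all genes tested. Levels are given as CPM, reads of a gene per 1000000 reads counted, scaled by edgeR's TMM factors. Fold changes are mocetinostat over DMSO, and samples are listed in the order of their replicate numbers, 1 to 3. In bulk RNA, a change in the share of cells that express a gene and a change in RNA per cell cannot be told apart.

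**Figure D1:**
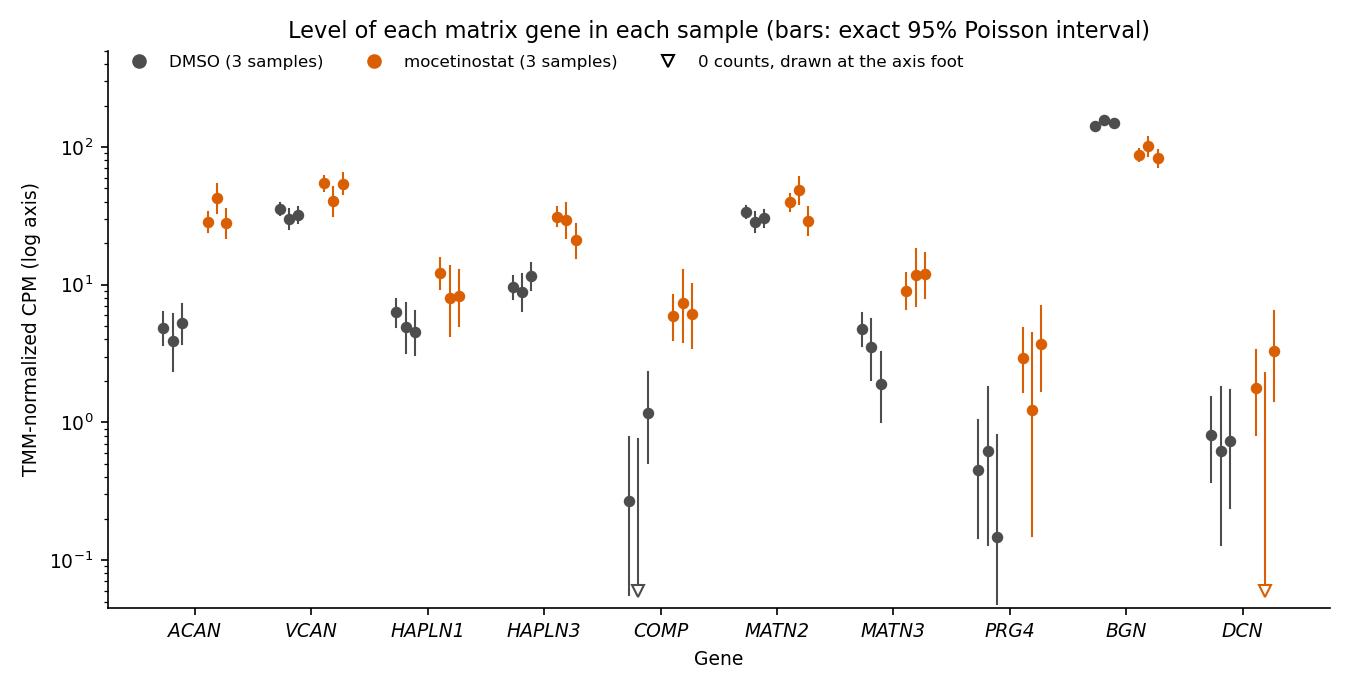
TMM-normalized CPM on a log axis for each of the 10 matrix genes, with a point for each of 3 DMSO-treated and 3 mocetinostat-treated samples, bars for the exact 95% Poisson interval, and open triangles for samples with 0 counts. The mocetinostat points lie above the DMSO points in *ACAN*, *VCAN*, *HAPLN1*, *HAPLN3*, *COMP*, *MATN3*, and *PRG4*, lie below them in *BGN*, and overlap with them in *MATN2* and *DCN*.

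**Figure D2:**
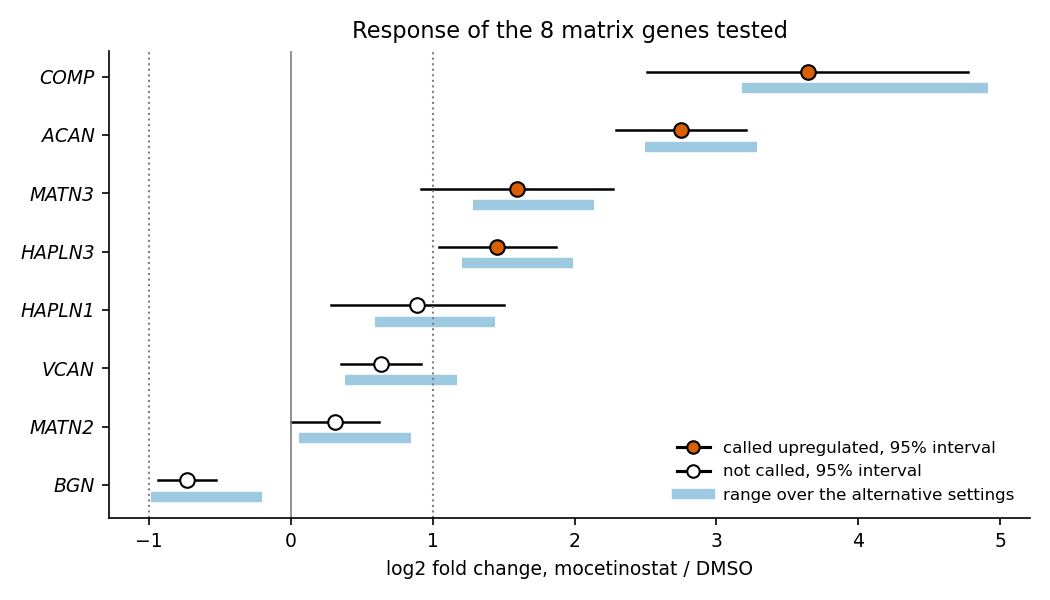
Log2 fold change of the 8 genes tested, with the 95% interval, dotted lines at -1 and 1, filled points for genes called upregulated, and blue bars for the range over the alternative settings. *COMP*, at 3.64, has the widest interval, from 2.51 to 4.78, and *BGN*, at -0.74, is the only gene whose interval lies below 0.

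Total counts per sample ranged from 4873426 to 11031132 with DMSO and from 1619344 to 5089542 with mocetinostat, so the treated samples measured scarce genes with larger counting error. Among 10 chondrocyte markers, the summed level was between 112.6 and 135.7 CPM with DMSO and between 212.6 and 252.2 CPM with mocetinostat. *SOX9* made up most of it, *CNMD* was at 0 in every sample, and *MATN1*, the matrilin of mature cartilage, never exceeded 9 counts. Of the 5 chondrocyte markers tested, 2 were called upregulated, against 20.2% of all genes tested. *COL2A1* was at 3.70 on the log2 scale, and passed the filter on low counts only with the treated samples. *COL11A2* was at 1.54. *COL9A2* and *COL9A3* showed no detected change, at 0.41 and 0.47 (adjusted p = 0.435 and 0.309). A list of 6 fibroblast markers summed to between 4620 and 5584 CPM with DMSO and between 4289 and 4665 CPM with mocetinostat, most of it from *COL1A1*. Of these 6, 3 were called upregulated, against 20.2% of all genes tested. They were *PDGFRA*, *LUM*, and *COL1A2*, at 3.82, 2.71, and 1.73 on the log2 scale. These 3 passed the filter on low counts only with the treated samples. *COL3A1* was called downregulated at -1.35, 1 of 6 against 8.18% of all genes. *THY1* and *COL1A1* were not called, at 0.75 and -0.21. Of the other cell type lists, 3 epithelial markers went from at most 0.877 CPM to at least 21.8 CPM, 6 hypertrophic chondrocyte and osteoblast markers from at most 1.17 to at least 17.9 CPM, 3 endothelial markers from at most 7.02 to at least 16.0 CPM, and 5 blood cell markers from at most 2.07 to at least 5.31 CPM, with 2 of the blood cell markers at 0 in every sample. With mocetinostat, *SPP1* made up most of the hypertrophic and osteoblast sum (mean 18.7 CPM), and *IBSP* had 3, 8, and 4 reads. *COL10A1* and *BGLAP* of that list never exceeded 3 counts. *CD14* made up most of the blood cell sum with mocetinostat (mean 7.40 CPM). Of the endothelial markers, *CDH5* showed no detected change (log2 fold change 0.12, adjusted p = 0.834). The part of these cell type lists in the results of the matrix genes was not tested.

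The upstream sequences of the 4 upregulated genes and of *BGN* are shown first, since they let the genes that were higher after treatment be set beside the one that was lower. Each sequence is the 250 bases just before the transcription start in RefSeq (GRCh38.p14), written 5′ to 3′ on the strand of the gene, with capitals for the GC box GGGCGG or its reverse complement CCGCCC (overlapping matches counted), a sequence bound by SP and KLF family factors. The regions are chr15:88803186-88803435 (plus strand) for *ACAN*, chr15:88895545-88895794 (minus strand) for *HAPLN3*, chr19:18791306-18791555 (minus strand) for *COMP*, chr2:20012669-20012918 (minus strand) for *MATN3*, and chrX:153494730-153494979 (plus strand) for *BGN*.
ACAN: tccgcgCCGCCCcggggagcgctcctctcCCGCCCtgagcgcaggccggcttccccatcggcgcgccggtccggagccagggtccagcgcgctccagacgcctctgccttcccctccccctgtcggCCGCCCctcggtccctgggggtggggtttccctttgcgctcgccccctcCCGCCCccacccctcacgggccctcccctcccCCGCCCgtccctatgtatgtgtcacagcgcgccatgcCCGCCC
HAPLN3: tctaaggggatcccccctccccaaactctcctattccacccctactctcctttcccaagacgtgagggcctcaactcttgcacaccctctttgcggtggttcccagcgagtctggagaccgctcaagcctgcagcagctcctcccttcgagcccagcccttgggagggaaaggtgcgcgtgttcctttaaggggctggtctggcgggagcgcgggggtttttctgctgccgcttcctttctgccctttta
COMP: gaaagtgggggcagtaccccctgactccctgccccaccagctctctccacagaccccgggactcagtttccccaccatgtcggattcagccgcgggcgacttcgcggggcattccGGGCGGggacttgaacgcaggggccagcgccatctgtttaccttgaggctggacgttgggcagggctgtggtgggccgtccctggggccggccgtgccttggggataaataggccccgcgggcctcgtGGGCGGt
MATN3: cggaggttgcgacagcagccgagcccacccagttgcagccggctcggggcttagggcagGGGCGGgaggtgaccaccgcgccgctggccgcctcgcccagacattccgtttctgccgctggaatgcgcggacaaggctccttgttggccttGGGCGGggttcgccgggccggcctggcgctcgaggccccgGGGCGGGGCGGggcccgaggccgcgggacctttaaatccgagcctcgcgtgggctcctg
BGN: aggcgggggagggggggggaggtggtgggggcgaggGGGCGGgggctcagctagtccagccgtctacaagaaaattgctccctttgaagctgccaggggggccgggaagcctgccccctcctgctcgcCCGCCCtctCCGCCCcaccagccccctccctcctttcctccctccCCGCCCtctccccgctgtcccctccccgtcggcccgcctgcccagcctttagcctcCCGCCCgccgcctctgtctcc

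The upstream sequences of the 4 upregulated genes were not alike. *ACAN* held 6 GC boxes and 28 CpG dinucleotides and was 77.2% G or C. *MATN3* held 4 GC boxes and 30 CpG dinucleotides at 74.0% G or C. *COMP* held 2 GC boxes and 19 CpG dinucleotides at 68.4% G or C. *HAPLN3*, also upregulated, held 0 GC boxes and 11 CpG dinucleotides at 60.4% G or C, but 2 CACCC boxes (CACCC or GGGTG), another motif of KLF factors, of which *ACAN* also had 2. *BGN*, which was lower after treatment, held 5 GC boxes and 16 CpG dinucleotides at 74.0% G or C, so a GC-rich start was found on both sides. Across 35116 promoters of this length in the same table, 42.6% held a GC box, 54.7% held a CACCC box, the median was 58.0% G or C, and the median CpG number was 11. The SOX core ACAAT (or ATTGT), present in 24.6% of the promoters, and the letters TATAAA (or TTTATA), present in 10.7%, were in none of the windows of the 8 genes matched to the table. Of the other genes, *VCAN* had 1 GC box and 12 CpG dinucleotides, *HAPLN1* 0 and 5, and *PRG4* 0 and 2. *MATN2* and *DCN* were not analysed here for sequence.

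Aggrecan and versican are the hyalectans of this set, large proteoglycans that bind hyaluronan. *ACAN* lies on chromosome 15 from 88803436 to 88875353 on the plus strand of GRCh38, and its annotated exons span 10914 bases. Its level was 4.85, 3.93, and 5.26 CPM in the controls and 28.7, 42.4, and 28.0 CPM in the treated samples, from 54, 19, and 36 reads and from 146, 69, and 68 reads. Every treated sample was above every control sample, and the mocetinostat sample with the fewest total counts, replicate 2, stood highest. The mean rose from 4.68 ± 0.685 to 33.0 ± 8.14 CPM (SD, n = 3), with a log2 fold change of 2.75 (SE 0.23, adjusted p = 2.06e-17). *ACAN* was called upregulated under 15 of 15 alternative settings, at 2.50 to 3.29.

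*VCAN* lies on chromosome 5 from 83471618 to 83582303 on the plus strand. Its level was 35.5, 30.0, and 32.2 CPM with DMSO and 54.5, 40.6, and 54.3 CPM with mocetinostat. The lowest treated sample, replicate 2 at 40.6 CPM, was above the highest control sample. The log2 fold change was 0.63 (SE 0.14, adjusted p = 7.53e-05), under the fold minimum. Scaling each library to its *GAPDH* count, which moved the median of all genes to 0.53, took *VCAN* to 1.17 and past the fold minimum. Exons of *VCAN-AS1* on the other strand cover 3.09% of the *VCAN* exons, and the strand setting of the counting is not given in the sources used here.

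The ratio of both hyalectans within a sample needs no scaling between samples. *ACAN* made up 12.03%, 11.6%, and 14.1% of the summed *ACAN* and *VCAN* counts in the controls and 34.5%, 51.1%, and 34.0% in the treated samples. Exact (Clopper-Pearson) 95% intervals reached at most 18.9% in the controls and started at 27.5% or higher in treated samples; these intervals cover counting error only, since the reads carry no molecular identifiers. The log2 ratio of *ACAN* to *VCAN* was 2.18 higher with mocetinostat, a 4.54-fold shift, with no overlap between conditions. The exact two-sided permutation test gave p = 0.1, the smallest that 3 against 3 samples allow, and 0.233 after adjustment over the 7 pairs of genes compared in this way. Per kilobase of exon, *VCAN* was at 2.22 ± 0.188 and *ACAN* at 0.429 ± 0.0627 CPM per kb with DMSO, and at 3.39 ± 0.543 and 3.03 ± 0.746 CPM per kb with mocetinostat, where the values of both genes lay within their spread.

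**Figure D3:**
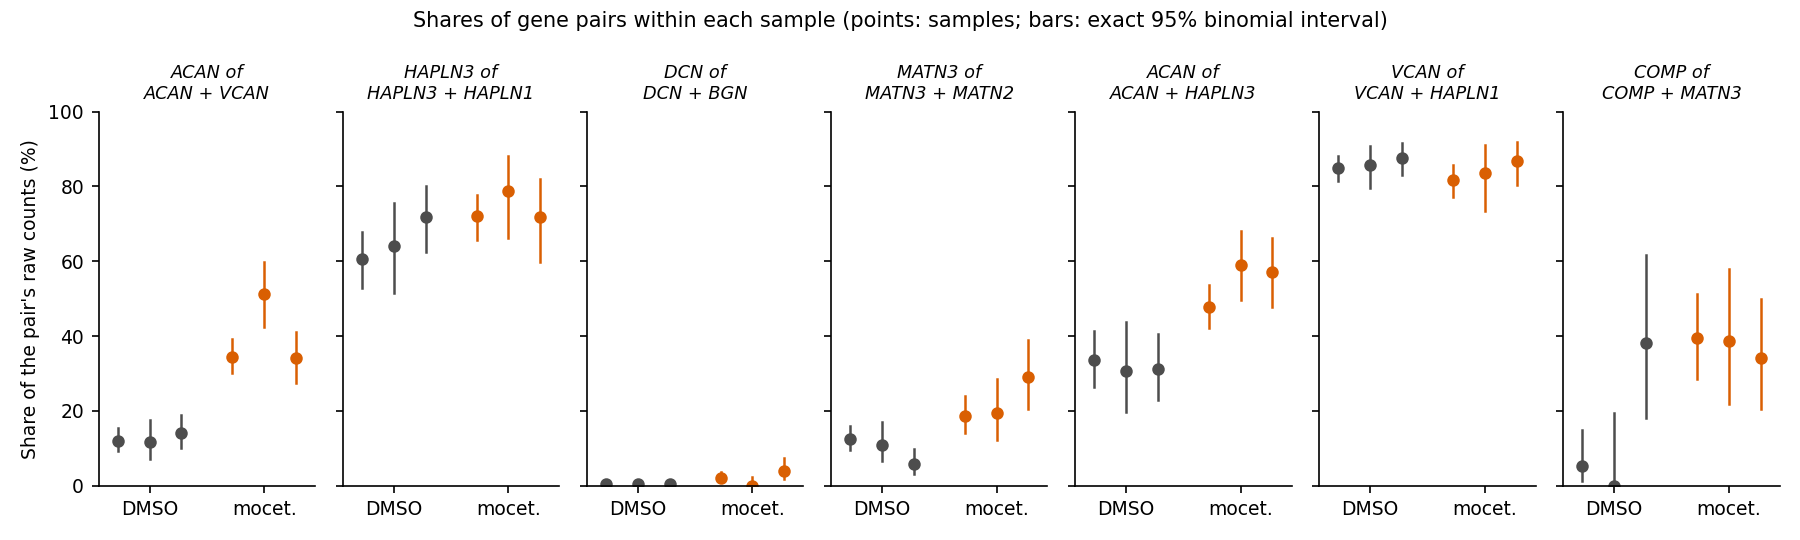
Share of the first gene in the summed raw counts of each of 7 gene pairs, in percent, with a point per sample and the exact 95% binomial interval. The share of *ACAN* beside *VCAN* goes from at most 14.1% with DMSO to at least 34.0% with mocetinostat, while the share of *VCAN* beside *HAPLN1* stays between 81.7% and 87.6% in all 6 samples.

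*HAPLN1* and *HAPLN3* encode link proteins, which fasten hyalectans to hyaluronan. *HAPLN3*, on chromosome 15 from 88877294 to 88895597 on the minus strand, was at 9.60, 8.88, and 11.6 CPM with DMSO and at 31.3, 29.5, and 21.0 CPM with mocetinostat. All treated samples lay above the controls, with replicate 3 the lowest of them. The mean rose from 10.01 ± 1.38 to 27.3 ± 5.51 CPM (SD, n = 3), which is 1.45 on the log2 scale (SE 0.21, adjusted p = 4.66e-09), and *HAPLN3* was called under 15 of 15 alternatives.

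*HAPLN1* encodes the link protein for which cartilage is best known, and lies on chromosome 5 from 83637805 to 83720855 on the minus strand. It was at 6.28, 4.96, and 4.53 CPM with DMSO and at 12.2, 7.99, and 8.22 CPM with mocetinostat. The treated samples were again all higher, but replicate 1 stood apart from the other two. The log2 fold change was 0.89 (SE 0.31, adjusted p = 0.00853), under the fold minimum. Without mocetinostat replicate 1 it was 0.59 and the adjusted p was 0.203, without DMSO replicate 1 it was 1.05 (adjusted p = 0.00730) and *HAPLN1* was called, as it was under scaling to *GAPDH*, at 1.44. The adjusted p was 0.101 with DESeq2, 0.123 without the expression filter, and 0.0637 with every library thinned to the smallest total. Without the filter the log2 fold change of *HAPLN1* was 0.64, and all 8 matrix genes tested were lower than in the main fit. The log2 ratio of *HAPLN3* to *HAPLN1* was 0.58 higher with mocetinostat, with overlap between conditions (exact permutation p = 0.2, adjusted 0.28), so a difference between both link proteins in their response was not shown. The log2 ratio of *VCAN* to *HAPLN1* differed by -0.24 (exact permutation p = 0.3, adjusted 0.35), and by -0.40 to -0.08 under the alternatives.

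Each link protein gene is next to a hyalectan gene. *ACAN* and *HAPLN3* are on opposite strands with 1.94 kb between their ends, and *VCAN* and *HAPLN1* likewise with 55.5 kb between them. Both genes of the first pair were called upregulated, and neither gene of the second pair was, except under the settings named above. Within the first pair the rise was unequal, since the log2 ratio of *ACAN* to *HAPLN3* was 1.36 higher with mocetinostat, with no overlap between conditions (exact permutation p = 0.1, adjusted 0.233), and the share of *ACAN* in the counts of both genes went from 33.5%, 30.6%, and 31.3% to 47.9%, 59.0%, and 57.1%.

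The genes around both pairs were followed over 500 kb to either side of the hyalectan start, a window chosen after the data were seen. Around *ACAN*, 4 of 10 tested genes were called upregulated, against 20.2% of all genes tested, and 0 downregulated, against 8.18%. The 4 include *ACAN* and *HAPLN3*, whose calls were known before the window was drawn. The median of the 10 was 0.00 on the log2 scale. The other called genes besides *ACAN* and *HAPLN3* were *MFGE8* and *ISG20*. *MFGE8*, which encodes the secreted glycoprotein lactadherin, is 3.09 kb beyond *HAPLN3*. Its level was 90.1, 97.3, and 102.1 CPM with DMSO and 223.0, 234.2, and 212.6 CPM with mocetinostat, and its log2 fold change was 1.21 (SE 0.09, adjusted p = 3.46e-19). *ACAN*, *HAPLN3*, and *MFGE8*, which follow each other along the chromosome among tested genes, were thus all called. Omitting the expression filter lowered the log2 fold changes of all 8 matrix genes tested, and *MFGE8* was then at 0.96, under the fold minimum. *ISG20*, 147 kb on the other side of *ACAN*, had a log2 fold change of 1.01 (SE 0.31, adjusted p = 0.00379), but its conditions overlapped and without mocetinostat replicate 1 it was 0.39 (adjusted p = 0.447). *ISG20* was called under 6 of the 14 alternatives that tested it. The more distant genes went both ways, with *ABHD2* at 0.27 and *AEN* and *MRPS11* at -0.28 and -0.26, while *MRPL46*, *FANCI*, and the pseudogene *HMGB1P8* were at -0.99, -0.84, and -0.84. Around *VCAN*, 0 of 4 tested genes were called in either direction, and *XRCC4* and *TMEM167A*, the genes other than *VCAN* and *HAPLN1*, were at -0.61 and -0.08.

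**Figure D4:**
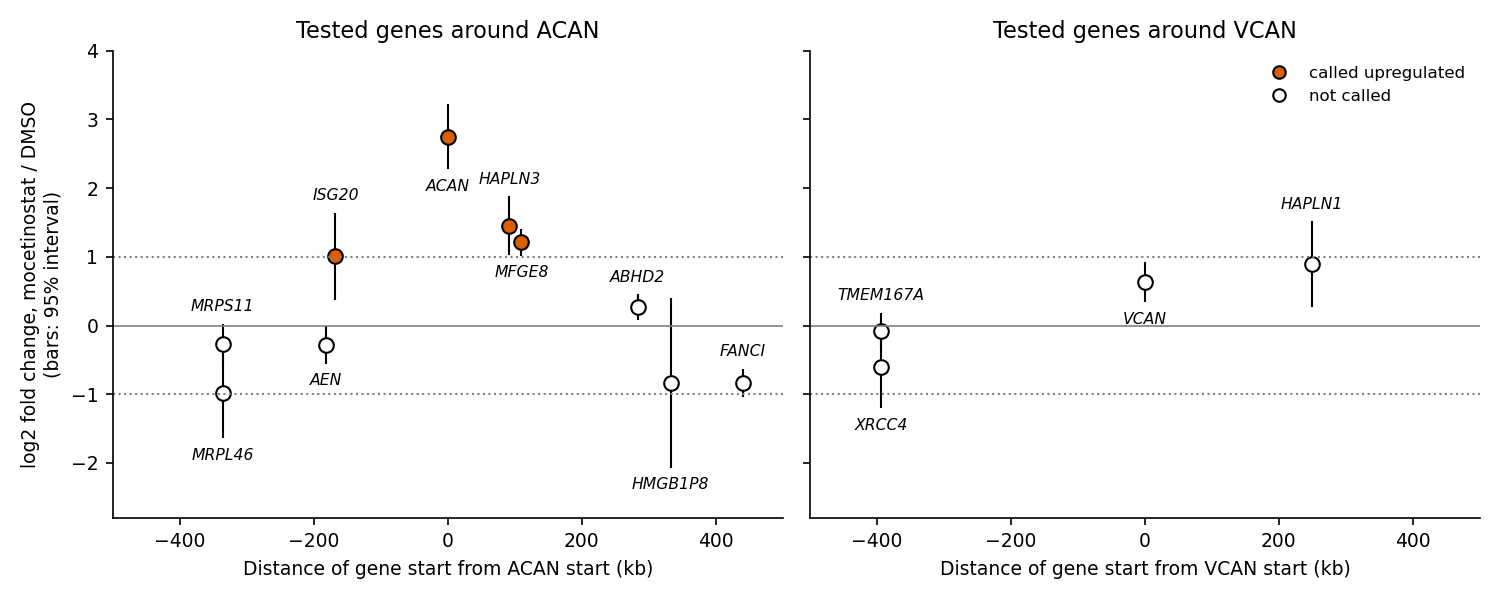
Log2 fold change with its 95% interval for each tested gene within 500 kb of the start of *ACAN* (left) and *VCAN* (right), against the distance of the gene's start in kb, with dotted lines at -1 and 1. *ACAN*, *HAPLN3*, *MFGE8*, and *ISG20* are the filled points, and no gene around *VCAN* is filled.

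COMP and the matrilins are the oligomeric glycoproteins of the set. *COMP*, which encodes cartilage oligomeric matrix protein and lies on chromosome 19 from 18782773 to 18791305 on the minus strand, was scarce. It had 3, 0, and 8 reads in the controls and 30, 12, and 15 reads in the treated samples, which is 0.269, 0, and 1.17 CPM against 5.90, 7.38, and 6.17 CPM. The 0 in DMSO replicate 2 has an exact 95% Poisson interval of up to 0.762 CPM, and all treated samples lay well above the highest control. The mean rose from 0.480 ± 0.613 to 6.48 ± 0.787 CPM (SD, n = 3), which is 3.64 on the log2 scale (SE 0.57, adjusted p = 5.77e-08). The size rests on few control reads, and without DMSO replicate 3, which held 8 of the 11 control counts, it was 4.91 (adjusted p = 2.56e-09). *COMP* was called in each of the 13 alternatives in which it was tested.

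*MATN3* and *MATN2* encode matrilins, of which matrilin-3 is found mainly in cartilage and matrilin-2 in many tissues. *MATN3*, on chromosome 2 from 19992052 to 20012668 on the minus strand, was at 4.76, 3.51, and 1.90 CPM with DMSO and at 9.05, 11.7, and 11.9 CPM with mocetinostat. DMSO replicate 3 was the lowest control and mocetinostat replicate 1 the lowest treated sample, and no treated sample fell among the controls. The log2 fold change was 1.59 (SE 0.34, adjusted p = 3.67e-05). It was called under 14 of 15 alternatives, the exception being glmTreat, which tests whether a fold exceeds the minimum (adjusted p = 0.0613). Exons of *WDR35-DT* on the other strand cover 7.997% of the *MATN3* exons.

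*MATN2*, on chromosome 8 from 97868840 to 98036724 on the plus strand, was at 33.7, 28.5, and 30.4 CPM with DMSO and at 39.5, 48.6, and 29.2 CPM with mocetinostat. Mocetinostat replicate 3 lay among the controls, so the conditions overlapped. The log2 fold change was 0.31 (SE 0.16, 95% interval -0.00 to 0.62, adjusted p = 0.0772), and without mocetinostat replicate 3 it was 0.45 (adjusted p = 0.0150), still under the fold minimum. The interval excludes a change as large as that of *MATN3*, whose interval was 0.91 to 2.27. *MATN3* made up 12.4%, 10.97%, and 5.88% of the counts of both matrilins with DMSO and 18.6%, 19.4%, and 29.0% with mocetinostat, with a log2 ratio 1.44 higher after treatment and no overlap (exact permutation p = 0.1, adjusted 0.233). The log2 ratio of *COMP* to *MATN3* was 2.52 higher with mocetinostat, but DMSO replicate 3, where *COMP* made up 38.1% of both genes' counts, lay among the treated samples at 34.1% to 39.5% (exact permutation p = 0.2, adjusted 0.28). That value moved with single libraries and with depth, to 1.57 without DMSO replicate 2, 3.81 without DMSO replicate 3, and 1.56 after thinning.

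*PRG4* encodes lubricin, the lubricating proteoglycan of the joint surface, and lies on chromosome 1 from 186296279 to 186314567 on the plus strand. It had 5, 3, and 1 reads in the controls and 15, 2, and 9 reads in the treated samples, or 0.449, 0.620, and 0.146 CPM against 2.95, 1.23, and 3.70 CPM. All treated samples were higher, but mocetinostat replicate 2 held only 2 reads, with an exact 95% Poisson interval from 0.149 to 4.44 CPM. *PRG4* did not pass the expression filter. With all genes kept, edgeR gave a log2 fold change of 2.48 (adjusted p = 0.00998), and DESeq2 gave 2.73 (adjusted p = 0.0178). Exons of *TPR* on the other strand cover 13.3% of its exons. The count of *PRG4* may thus depend on how strand and reads that overlap both genes were treated.

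Biglycan and decorin are small leucine-rich proteoglycans of similar build. *BGN*, on chromosome X from 153494980 to 153509546 on the plus strand, had the most reads of the 10 genes and was the only one tested that was lower after treatment. Its level was 142.0, 156.6, and 150.01 CPM with DMSO and 87.5, 101.4, and 82.6 CPM with mocetinostat. Each treated sample lay below each control, and the gap between conditions was wider than the range within either of them. The mean was 149.5 ± 7.32 CPM with DMSO and 90.5 ± 9.76 CPM with mocetinostat (SD, n = 3), and the log2 fold change was -0.74 (SE 0.10, 95% interval -0.94 to -0.53, adjusted p = 2.97e-09), under the fold minimum. Under scaling to *GAPDH*, where the median of all genes was 0.53, it was -0.20 (adjusted p = 0.101), still below that median.

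*DCN*, on chromosome 12 from 91140484 to 91183217 on the minus strand, was near the limit of these libraries. It had 9, 3, and 5 reads in the controls and 9, 0, and 8 reads in the treated samples, or 0.808, 0.620, and 0.731 CPM against 1.77, 0, and 3.29 CPM. Mocetinostat replicates 1 and 3 were above the controls and replicate 2 below them, and the 0 there has an exact 95% Poisson interval of up to 2.27 CPM. *DCN* was left out by the filter. With all genes kept, edgeR gave 1.03 on the log2 scale (adjusted p = 0.415), and a difference was not detectable at this depth. *DCN* made up at most 0.566% of the counts of *DCN* and *BGN* in the controls and at most 3.83% after treatment, and the log2 ratio was 1.40 higher with overlap (exact permutation p = 0.4, adjusted 0.4). It was 2.50 without mocetinostat replicate 2 and 0.60 without mocetinostat replicate 3.

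Put together, the 10 genes took up 238.1, 237.6, and 237.9 CPM in the controls and 273.4, 290.8, and 248.3 CPM in the treated samples. Without *BGN*, the other 9 genes summed to 96.1, 81.0, and 87.9 CPM with DMSO and to 185.9, 189.4, and 165.7 CPM with mocetinostat. Once divided by exon length, the sum over the 10 genes went the other way, from 72.3, 76.3, and 74.6 to 64.9, 71.9, and 58.9 CPM per kb, because *BGN* is short and abundant. Of this per-length sum, *BGN* made up 83.6% ± 1.85 with DMSO and 57.7% ± 1.38 with mocetinostat (SD, n = 3). *HAPLN3* went from 3.86% to 11.9%, *MATN3* from 1.45% to 5.33%, *ACAN* from 0.578% to 4.602%, *COMP* from 0.209% to 3.21%, and *PRG4* from 0.108% to 0.828%. Shares add up to the whole, so a smaller share of *BGN* alone raises the others; *MATN2* and *VCAN*, which were not called, also went from 5.99% to 8.55% and from 2.99% to 5.28%. Per length, *BGN* was the most abundant of the 10 genes in both conditions, at 62.2 ± 3.04 and 37.7 ± 4.06 CPM per kb. With DMSO it was followed by *MATN2* at 4.45 ± 0.375, *HAPLN3* at 2.87 ± 0.395, and *VCAN* at 2.22 ± 0.188 CPM per kb. With mocetinostat *HAPLN3*, at 7.81 ± 1.58 CPM per kb, came next, then *MATN2* at 5.63 ± 1.40, whose spread met that of *HAPLN3*, and *MATN3*, *VCAN*, and *ACAN*, at 3.45 ± 0.506, 3.39 ± 0.543, and 3.03 ± 0.746, followed and could not be ordered within their spread. *COMP* at 2.10 ± 0.255 and *HAPLN1* at 1.53 ± 0.381 CPM per kb were lower, and *PRG4* and *DCN* remained lowest at 0.520 ± 0.251 and 0.130 ± 0.127. Lengths here are of all annotated exons of a gene merged, 12941 bases for *DCN*, and not of the transcripts expressed. The order per length may depend on this choice.

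**Figure D5:**
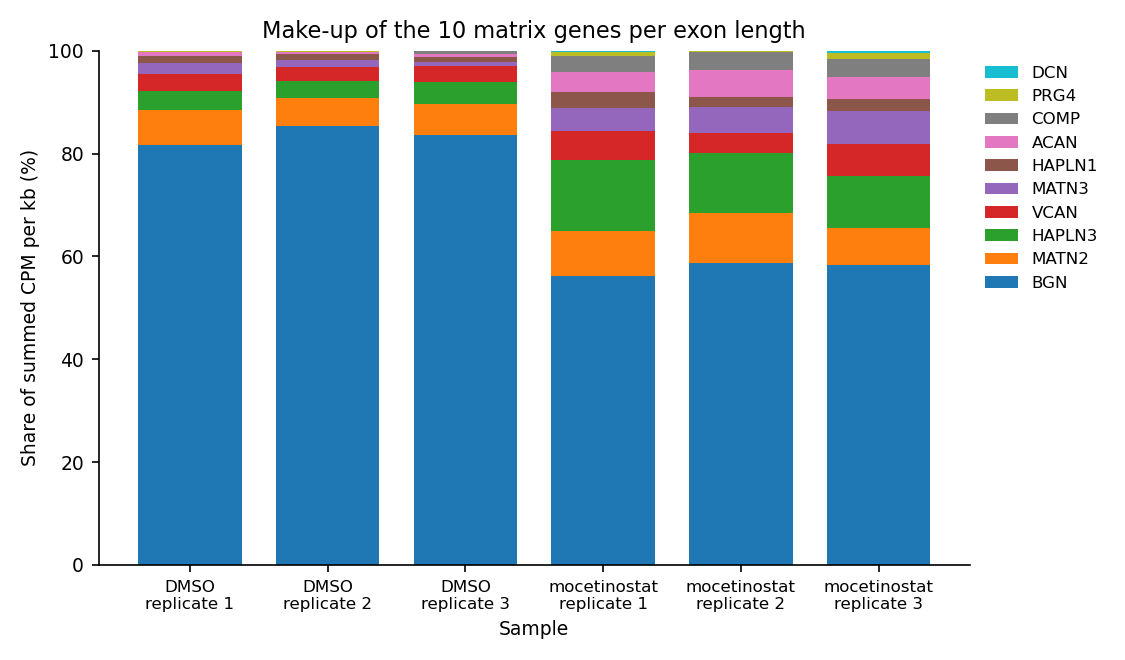
Share of each of the 10 matrix genes in their summed CPM per kilobase of exon, in percent, stacked to 100% for each of the 6 samples. The *BGN* block takes 83.6% on average with DMSO and 57.7% with mocetinostat, and the blocks of *HAPLN3*, *MATN3*, *ACAN*, and *COMP* are wider in the treated samples.

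The relatives of these genes in the same protein families were mostly silent or scarce. Of 25 relatives, 10 had 3 counts or fewer in every sample and only 7 were tested. edgeR called 2 of the 7 upregulated, against 20.2% of all genes tested, and 0 downregulated, against 8.18%. The 2 were *NCAN* and *LUM*, which passed the filter on low counts only with the treated samples. Their direction was thus not independent of the filter. The median of the 7 was 0.32 on the log2 scale. *NCAN*, which encodes neurocan, a hyalectan of nervous tissue, had 0, 1, and 1 reads in the controls and 38, 9, and 20 in the treated samples. All control samples were at or under 3 counts, so the change is given against the floor of 3 counts per control library. The mean of the treated samples was 16.0 times the mean floor, without allowance for counting error in the treated samples. *LUM*, which encodes lumican, a relative of biglycan and decorin, had 31, 7, and 12 reads in the controls and 71, 19, and 39 in the treated samples, a log2 fold change of 2.71 (SE 0.34, adjusted p = 1.08e-10). *TSKU*, another small leucine-rich proteoglycan, was the lowest at -0.74 (SE 0.19, adjusted p = 4.29e-04), like *BGN* under the fold minimum. *THBS1*, a thrombospondin and so a relative of *COMP*, had the most reads, from 10150 to 57824 counts per sample, with a log2 fold change of 0.30 (SE 0.05, adjusted p = 1.11e-06). The other link proteins and matrilins were not tested, and *HAPLN4* had 0 counts in every sample.

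Of 19 other glycoproteins of the cartilage matrix, 11 were tested. Of these 11, 6 were called upregulated, against 20.2% of all genes tested, and 0 downregulated, against 8.18%. The median of the 11 was 1.14 on the log2 scale. For both lists together, 13 of 18 tested genes were higher at an adjusted p under 0.05, against 32.9% of all genes. Lower at that threshold were 3 of the 18, against 31.4%. edgeR and DESeq2 each called 0 of the listed genes downregulated. *CRTAC1*, which encodes cartilage acidic protein, had 3, 1, and 0 reads in the controls and 35, 16, and 7 in the treated samples. The treated samples were at 6.88, 9.84, and 2.88 CPM, and their mean was 14.8 times the mean floor. *CRTAC1* passed the filter on low counts only with the treated samples, as did *CHI3L1*. *FN1*, which encodes fibronectin, had the most reads, from 41737 to 181600 counts per sample, and a log2 fold change of 0.64 (SE 0.05, adjusted p = 1.41e-20), which rose to 1.17 under scaling to *GAPDH*. *TNC*, which encodes tenascin-C, was the lowest at -0.32 (SE 0.06, adjusted p = 8.29e-06) and was above 0, at 0.20, under scaling to *GAPDH*. The other called genes were *CILP2*, *CHI3L1*, *HSPG2*, *MFGE8*, and *VWA1*, at 1.36, 1.603, 1.14, 1.21, and 1.16. With glmTreat, *CILP2*, *CHI3L1*, *HSPG2*, and *VWA1* lost their calls (adjusted p = 0.0527, 0.0520, 0.151, and 0.282). Without the expression filter *HSPG2*, *VWA1*, and *MFGE8* were under the fold minimum, at 0.89, 0.90, and 0.96. That setting also lowered all 8 matrix genes tested, such as *VCAN* from 0.63 to 0.38 and *BGN* from -0.74 to -0.99. The drop was thus not particular to these 3 genes.

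SOX9, together with SOX5 and SOX6, drives the transcription of aggrecan, link protein, and matrilin genes in cartilage. *SOX9* was at 101.3, 120.7, and 94.7 CPM with DMSO and at 188.2, 185.1, and 162.0 CPM with mocetinostat. No treated sample overlapped with the controls, and the log2 fold change was 0.77 (SE 0.10, adjusted p = 2.51e-10), and it stayed under the fold minimum except when scaled to *GAPDH*. *SOX5* had 1, 0, and 5 reads in the controls and 18, 10, and 7 in the treated samples, a log2 fold change of 3.77 (SE 0.69, adjusted p = 2.30e-06), and 5.50 (adjusted p = 6.11e-07) without DMSO replicate 3, which held 5 of the 6 control reads. *SOX5* passed the filter on low counts only with the treated samples. *SOX6*, with 2, 2, and 3 counts against 7, 2, and 2, was too scarce to test.

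The genes whose levels over the 6 samples were most like those of each matrix gene were sought among tested genes within 2-fold of its mean level, by Pearson's r of log2(CPM + 1). This is a description over samples that share treatment and depth, and many genes reach a high r over 6 samples of 2 conditions. For *ACAN* they were *BMP4*, a growth factor of the BMP family (r = 0.999, log2 fold change 1.80), and *EEPD1* (0.999, 2.61). For *HAPLN3* they were *PC*, which encodes pyruvate carboxylase (0.998, 1.13), and *ELMO1* (0.997, 1.76), for *COMP* *ANKRD24* (0.997, 3.86) and *ZC3H12B* (0.995, 3.04), and for *MATN3* *TRDMT1* (0.996, 0.93) and *PDE1B* (0.990, 2.97). For *VCAN* they were *IL4R*, the interleukin 4 receptor (1.00, 0.39), and *MME* (0.993, 1.12), for *HAPLN1* *PRELID2* (0.993, 0.92) and *ASTN2* (0.992, 1.86), and for *MATN2* *STRADB* (0.991, 0.34) and *SPSB1* (0.978, 0.44). For *BGN* they were *EP300*, which encodes the histone acetyltransferase p300 (0.998, -1.003), and *PRR12* (0.998, -1.80).

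The tested protein-coding genes nearest to the other matrix genes were looked up as well. *COMP* was called upregulated, while *CRTC1*, 0.440 kb from it, was at -0.13 (adjusted p = 0.457) and *UPF1* at -0.46. *MATN3* was called upregulated, while *WDR35*, 1.95 kb from it, was at -0.87 (adjusted p = 6.00e-07) and *LAPTM4A* at 0.04. Beside *MATN2*, *LAPTM4B* was at -0.19 and *RPL30* at -0.94, and beyond *HAPLN1*, *EDIL3* was at -0.48. Beside *BGN*, *HAUS7* was at -0.04 and *CCNQ*, 78.4 kb away, was called downregulated at -1.05 (adjusted p = 1.25e-05). *CCNQ* was called under 11 of 15 alternatives and fell just short of the fold minimum without mocetinostat replicate 2, at -0.93.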

How the data were processed

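RNA-Seq was analyzed in 6 samples of TC28a2 cells. The authors deposited whole raw counts per gene. According to the study's methods they trimmed single reads of 100 bases, removed ribosomal reads with SortMeRNA, aligned to GRCh38, and counted per gene; the submitters' processing notes name STAR 2.6.1d, featureCounts 1.6.4, and DESeq2 1.20.0. How strand and multi-mapped reads were treated is not given in the sources used here.

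TMM factors were taken from edgeR 4.0.16 (with limma 3.58.1 under R 4.3.3). Its filterByExpr function at a minimum count of 10 left 13966 of 60623 genes, on which treatment alone was tested by the quasi-likelihood test over all samples. A gene could pass this filter through the samples of 1 condition alone. Calls needed a Benjamini-Hochberg adjusted p under 0.05 and a log2 fold change over 1 or under -1. Counts of gene pairs were compared as log2 ratios (0.5 added) by exact permutation. Intervals and limits (3 counts) cover counting error only. Statistics and figures used Python 3.11.15, pandas 2.3.3, scipy 1.17.1, and matplotlib 3.10.9. Positions and exon lengths (all annotated exons of a gene merged) are from GENCODE 44 (99.5% of identifiers matched), and 8 genes matched RefSeq promoters. Replicates of a condition differed by more than sampling noise (chi-square per degree of freedom 1.96 to 7.19), which alone cannot show that they are independent. Each sample counted as a replicate because the study states that they come from 3 independent experiments. P-values measure the spread between these samples.

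The matrix genes and lists were chosen with earlier results of these data known. Named genes are the 10 matrix genes, the highest, lowest, and most abundant tested gene of each list, and *GAPDH*. Also named are the 2 genes most like each matrix gene and its nearest tested neighbours. Other list genes, cell type markers among them, and genes of the windows were named after their values were seen. Alternatives were DESeq2 1.42.0, library size alone, RLE factors, scaling to *GAPDH*, a test of all genes, a filter at 10 counts in all samples, glmTreat, a replicate block, thinning to 1619344 counts (reads drawn without replacement), and the omission of each sample. In simulated counts with 200 changed genes, edgeR called 96.4% and glmTreat 68.9% of the 193 that passed the filter. DESeq2 called 81.5% of 200, and 0 unchanged genes were called. The simulation gave all genes the same variability between samples. It also changed far fewer genes than the 2827 called upregulated and 1142 called downregulated here, so its rates need not hold for these data.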

Additional observations from a re-analysis of the deposited data

How the results depend on the processing

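Of the 8 matrix genes tested, *ACAN* and *HAPLN3* were called under every one of 15 alternatives, and *COMP* under the 13 that tested it. The number called upregulated was 5 with DESeq2 and with no filter, 6 with scaling to *GAPDH*, 3 with glmTreat, 3 with a filter at 10 counts in all samples and 3 after thinning (where *COMP* was not tested in either), 4 under the replicate block, and between 4 and 6 with 1 sample left out; the number called downregulated was 0 in all. Over all genes tested, 31.7% were called upregulated with scaling to *GAPDH*, 14.8% with glmTreat, 14.9% with that filter, and 7.9% with no filter, against 20.2%. The share was 18% after thinning and 20% under the replicate block. DESeq2 called 3419 of the 60623 genes of the whole count table upregulated (5.64%). Under the replicate block *ACAN* was at 2.74. Samples with the same replicate number did not deviate together (correlations 0.0078, 0.0116, and -0.0162), so the numbers were not taken as pairs. No log2 ratio of a gene pair changed sign. Of the relatives and other matrix glycoproteins, 8 were called upregulated, against 11 with DESeq2, 10 with scaling to *GAPDH*, 6 after thinning, 5 with the filter at 10 counts, where fewer genes were tested, and 4 with glmTreat, which tests against the fold minimum. For *HAPLN1*, *MATN2*, and *BGN*, the adjusted p crossed its threshold under 1 or more alternatives that test for any difference. For *VCAN* and *MATN3* it did so only under glmTreat. Depth limits *COMP*, *PRG4*, and *DCN* most, at 15 counts or fewer in most samples.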
